A study of Danio rerio with 48 samples.

Results

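The cytosolic ribosomal protein genes of the zebrafish retina were followed through 28 days of continuous light. They were taken as every listed gene whose symbol starts with rpl or rps followed by a number, by p (the stalk proteins) or by a (rpsa), without the rps6k kinases. The rule found 82 of 15245 listed genes. By symbol alone, 44 were assigned to the large subunit outside the stalk, 4 to the stalk of the large subunit and 34 to the small subunit. Whether each of them, such as rpl7l1, is a structural part of the ribosome was not checked. All 82 were listed in the RefSeq names of the assembly GRCz12tu, and all 82 passed the filter on low values.

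Ribosomal proteins and ribosomal RNAs build the small subunit, which reads the mRNA, and the large subunit, which joins amino acids. Their mRNAs carry a run of pyrimidines at the 5′ end, the TOP motif, through which mTOR signalling sets their translation as a group. Photoreceptors renew the opsin-rich membranes of their outer segments throughout life and rely on a steady supply of new protein.

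The retinas came from adult albino zebrafish of 6 to 9 months. The light-treated groups were housed under halogen lamps of about 5000 lux, the chronic low light (CLL) treatment, and were collected at 24, 36 and 72 h after light onset (hpl) and at 5, 10, 14 and 28 days (dpl), while the 0 h baseline was collected at the end of the 24 h in a dark box that all groups went through before any light. Each time-point had 6 libraries, each from the left retina of a single fish and made by 3′ mRNA-seq, in 2 library sets of 3 (replicates 1 to 3 and replicates 4 to 6). Some pigment epithelium and vitreous can come along in the dissection, and the fish at 0 h were themselves dark-adapted, so the baseline is not a retina under the normal light cycle.

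The deposited values are edgeR pseudocounts, called signal here, whose totals lie between 1631676 and 1636771 in every library, so a gene's signal is in effect its share of the library. Defining retinal transcripts were present in all 48 libraries: rho, the rod opsin, ranged from 7927 to 65384 signal and gnat2, a cone transducin subunit, from 422 to 11940 signal. A pair of 0 h libraries, 1 in each set, had no replicate number of its own that the labels could give, and both are written as library A with the number of the set. At 28 dpl, 2 libraries stood apart. A list of 24 egg transcripts, chosen after the values were seen, summed to a signal of 10309 in replicate 5 and 1067 in replicate 6 at 28 dpl, against 12.6 to 161 in the other 46 libraries. Replicate 5 also had the highest share of ribosomal protein transcripts of all libraries. The main counts at 28 dpl are therefore given with and without these retinas; the part of egg tissue in the ribosomal protein values was not tested.

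The mean share of ribosomal protein transcripts in the retinal mRNA was higher from 36 hpl on than at 0 h, after a low point at 24 hpl. The summed share was 4.90% ± 0.578 of the signal in dark-adapted retinas at 0 h (mean ± SD, n = 6 here and at each later time-point). It stood at 4.09% ± 0.3004 after 24 h of light and had passed the baseline by 36 hpl with 5.88% ± 0.980. At 72 hpl it was 6.63% ± 0.692, and at 5 dpl it was 6.94% ± 0.333. After a lower mean of 6.29% ± 0.885 at 10 dpl it came to 7.22% ± 0.839 at 14 dpl and to 8.50% ± 1.95 at 28 dpl. Expressed relative to 0 h, the mean share was 83.4% at 24 hpl, 135% by 72 hpl, 142% by 5 dpl and 174% by 28 dpl. The retinas at 5 dpl ranged from 6.64% to 7.54%, all above those at 0 h, which ranged from 4.38% to 5.97%. The retinas at 28 dpl ranged from 7.18% to 12.3% and also lay above all those at 0 h. Replicate 5 set the upper end: without it the share at 28 dpl was 7.74% ± 0.662 (n = 5), and without replicates 5 and 6 it was 7.47% ± 0.313 (n = 4). The retinas at 14 dpl, from 6.15% to 8.69%, lay above them too. The groups overlapped with 0 h at 24 hpl (3.79% to 4.63%), 36 hpl (4.65% to 7.38%), 72 hpl (5.87% to 7.74%) and 10 dpl (5.32% to 7.39%). The sum over the genes is given as a description and was not tested.

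**Figure D1:**
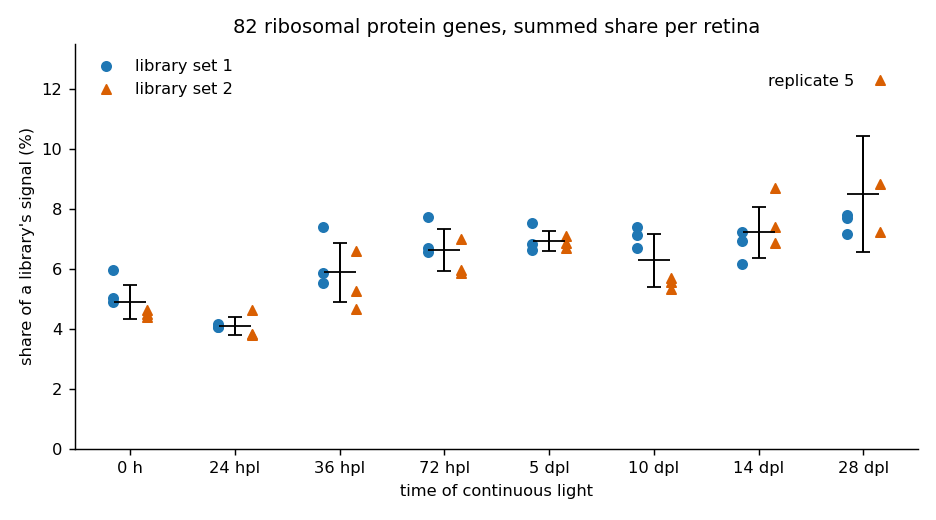
Summed share of the 82 ribosomal protein genes in each library (vertical axis, percent of the library's signal) by time of continuous light (horizontal axis). Circles are retinas of library set 1, triangles those of set 2, and the black bars show the mean ± SD of 6 retinas; the time-points from 72 hpl to 28 dpl average 6.29% to 8.50%, against 4.90% at 0 h, and replicate 5 at 28 dpl stands at 12.3%.

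Of the ribosomal protein genes past the test, all were lower than at 0 h at 24 hpl and all were higher at each later time-point. Each gene was tested with limma on log2(signal + 1), with terms for time-point and library set, and called at a Benjamini-Hochberg adjusted p under 0.05 over all 11395 genes tested. At 72 hpl, 51 of the 82 genes were higher than at 0 h and none lower, against 9.2% of all genes tested higher and 5.7% lower. At 5 dpl, 64 were higher and none lower (all genes: 6.49% higher, 2.09% lower). At 14 dpl, 70 were higher and none lower (all genes: 5.59% and 2.31%). At 28 dpl, 79 of 82 were higher and none lower (all genes: 7.74% and 3.26%). The median log2 fold change of the 82 genes was 0.44 (72 hpl), 0.52 (5 dpl), 0.57 (14 dpl) and 0.78 (28 dpl), where the medians over all genes tested were 0.03, 0.08, 0.04 and 0.03. The counts of 0 lower at these time-points were also 0 at an unadjusted p under 0.05. Without replicate 5, 77 of 82 genes were still called higher at 28 dpl with a median of 0.65, and without replicates 5 and 6 the count was 70 and the median 0.58.

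The earlier time-points and 10 dpl gave fewer calls. At 24 hpl, 5 genes were lower than at 0 h and none higher, where 7.14% of all genes were lower and 8.37% higher. At an unadjusted p under 0.05, 31 of the 82 were lower at 24 hpl, against 1605 of all 11395 genes. At 36 hpl, 9 were higher and none lower (all genes: 9.66% and 3.8%), and 36 were higher at an unadjusted p under 0.05, against 2080 of all genes. At 10 dpl, 29 were higher and none lower (all genes: 6.41% and 1.51%). Medians of the 82 log2 fold changes were -0.24 at 24 hpl, 0.26 at 36 hpl and 0.37 at 10 dpl, where the medians over all genes tested were -0.07, 0.13 and 0.16. Counts in the direction opposite to the called one were 0 at an unadjusted p under 0.05 at these time-points as well. Rescaling the libraries by median-of-ratios, which moved the median of all genes by -0.15 at both 36 hpl and 10 dpl, left 0 genes at 36 hpl, 1 at 10 dpl and 2 at 24 hpl, while at 5 dpl it left 35 and at 28 dpl 77. Rescaling to the total outside the rod and cone lists, chosen after seeing the data, gave 23 genes lower at 24 hpl, 1 higher at 36 hpl and 5 higher at 10 dpl. At 24 hpl it moved the median of all genes from -0.07 to -0.14 and that of the 82 from -0.24 to -0.32. The shares of all genes called after rescaling were not taken, so these counts have no background beside them. The counts at 24 hpl, 36 hpl and 10 dpl also moved with single retinas. The 5 genes at 24 hpl became 2 without 0 h replicate 2, 3 without 0 h library A of set 2 or without 24 hpl replicate 2, 4 or 6, and 15 without 24 hpl replicate 5 or 28 dpl replicate 5. The 9 genes at 36 hpl became 2 without 36 hpl replicate 1, 3 without 36 hpl replicate 5, 5 without 0 h replicate 6, 16 without 28 dpl replicate 5 and 21 without 36 hpl replicate 4. At 10 dpl the 29 genes became 11, 15 and 13 without 10 dpl replicates 1, 2 and 3, and 18, 16, 15 and 14 without 0 h library A of set 1, library A of set 2, replicate 5 and replicate 6.

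**Figure D2:**
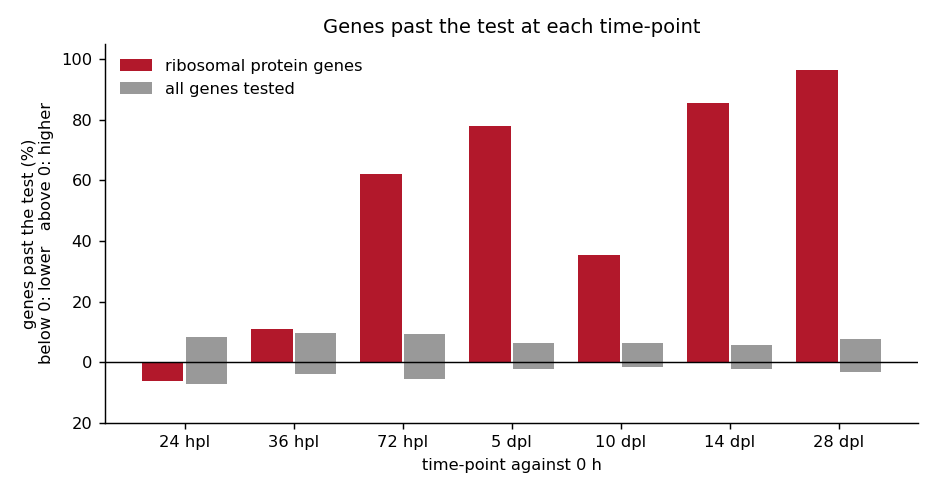
Share of genes past the test at each time-point against 0 h (vertical axis, percent; bars above 0 count genes that were higher and bars below 0 genes that were lower) for the 82 ribosomal protein genes (red) and all 11395 genes tested (grey). At 28 dpl 79 of the 82 genes were higher, against 7.74% of all genes, while at 24 hpl 5 were lower (all genes 7.14%) and at 36 hpl 9 were higher (all genes 9.66%).

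Ribosomal protein transcripts are abundant, and their fold changes are measured more tightly than those of most genes: over the 82 genes the standard error of a fold change against 0 h had a median of 0.135 on the log2 scale, and over all genes tested 0.325. A class of genes with a mean signal of at least 500, set after the values were seen, held 77 ribosomal protein genes and 509 others. Of the 77, 49 were higher at 72 hpl, then 61 (5 dpl), 68 (14 dpl) and 76 (28 dpl), while of the 509 others 21.4%, 17.5%, 16.7% and 17.3% were higher at those time-points. At 24 hpl 5 of the 77 were lower, against 17.5% of the 509 others. At 36 hpl 7 of the 77 were higher, against 19.3% of the 509 others, and at 10 dpl 27 were higher, against 13.6%.

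The groups of retinas separated for many single genes. Every retina at 28 dpl lay above every retina at 0 h for 67 of the 82 genes, against 4.19% of all genes tested. The count was also 67 without replicate 5 and without replicates 5 and 6, but leaving out retinas at 28 dpl cannot lower such a count. Replicate 5 was the lowest 28 dpl retina for 0 of the 82 genes and replicate 6 for 1. Over all genes the counts without these retinas were 543 of 11367 and 672 of 11345, in the same order. At the other time-points all retinas lay above all those at 0 h for 44 genes at 14 dpl (all genes 3.67%), 43 at 5 dpl (4.46%), 18 at 72 hpl (3.61%), 5 at 10 dpl (3.89%) and 0 at 36 hpl (4.71%). At 24 hpl every retina lay below every 0 h retina for 5 genes, against 2.92% of all genes. A fold of 2 or more together with the adjusted p was reached by 3 genes at 28 dpl, rplp2l and rps12 among them, a share near that of all genes, 3.62%. Without replicate 5 the count was 1, and without replicates 5 and 6 it was 0.

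Between neighbouring light time-points, and without rescaling, the step from 24 to 36 hpl was the only one with calls among the 82 genes. The step from 0 h to 24 hpl is given above. At 36 hpl 76 of the 82 genes were higher than at 24 hpl and none lower, also at an unadjusted p under 0.05, with a median log2 fold change of 0.52, against 13.8% of all genes higher and a median of 0.21 over all genes. That count depended on scaling: after rescaling the libraries by median-of-ratios or by the upper quartile, which moved the median of all genes by -0.19, the counts were 10 and 9, and the median of the 82 genes was 0.31 and 0.32. It also differed between the library sets, with 72 genes called in set 1 alone and 1 in set 2 alone. In limma's test none of the 82 genes was called between 36 and 72 hpl, 72 hpl and 5 dpl, 5 and 10 dpl, 10 and 14 dpl, or 14 and 28 dpl, where the shares of all genes called in either direction were 8.47%, 0.079%, 0.0351%, 0.246% and 0%. At an unadjusted p under 0.05 these steps had 9 higher at 72 hpl, 3 higher at 5 dpl, 4 lower at 10 dpl, 14 higher at 14 dpl and 18 higher at 28 dpl, each against the time-point before. Counts over all genes at this threshold are not reported for these steps, so no excess over the background can be read from these numbers. The medians of the 82 genes over these steps were 0.17, 0.07, -0.14, 0.19 and 0.20. Those over all genes were -0.12, 0.06, 0.06, -0.12 and 0.01. Under upper-quartile scaling the median of the 82 genes was 0.30 from 36 to 72 hpl and 0.34 from 10 to 14 dpl, beside 0.32 from 24 to 36 hpl. The 0 between 36 and 72 hpl became 3 without 72 hpl replicate 4, 2 without 36 hpl replicate 1 or 5, and 1 without 28 dpl replicate 5. Across all 8 time-points together, 79 of the 82 genes passed the moderated F-test, against 32.3% of all genes.

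The 82 genes kept close to one another. At 28 dpl the quartiles of their fold changes were 1.61 and 1.81, and 78 of 82 were within 0.3 of the median on the log2 scale, where the median standard error of a single gene was 0.135. At 5 dpl the quartiles were 1.35 and 1.51, and 79 were within 0.3 of the median. Mean signal was highest at 28 dpl for 80 of the 82 genes and lowest at 24 hpl for 80 as well. The exceptions at both ends were rps8b and rpl7l1, the 2 genes of lowest signal. The means at 28 dpl hold replicate 5, the highest retina of that time-point for 81 genes. These counts were not repeated without it and were not taken over all genes. Of the 82, 49 were called higher at each of 72 hpl, 5 dpl, 14 dpl and 28 dpl. Over all genes this joint count was not taken, and it cannot exceed the 5.59% called higher at 14 dpl. A smaller group of 7 was called at every time-point from 36 hpl on, namely rpl15, rpl22l1, rplp0, rps4x, rps8a, rps13 and rps27.2. Among these, the calls of rplp0, rpl15, rpl22l1 and rps13 at 36 hpl and 10 dpl, that of rps4x at 36 hpl and that of rps27.2 at 10 dpl were lost when certain single libraries were left out, and those of rps8a were not. Under median-of-ratios or upper-quartile scaling, however, 0 of the 82 genes were called at 36 hpl, so all 7 lost that call. At 10 dpl these scalings left 1 and 0 of the 82. At 28 dpl alone were rpl22, rps15, rps19, rps20 and rps25 called higher. Of these, rps15 was not called without replicate 5 (log2 fold change 0.45, adjusted p = 0.125), and rps15, rps19 and rps25 were not called without replicates 5 and 6 (adjusted p = 0.425, 0.0856 and 0.194). There were 2 genes, 1 of them rps8b, that were called at no time-point. These genes are named because of their pattern of calls, which was seen first. How many of all genes share such patterns was not counted.

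**Figure D3:**
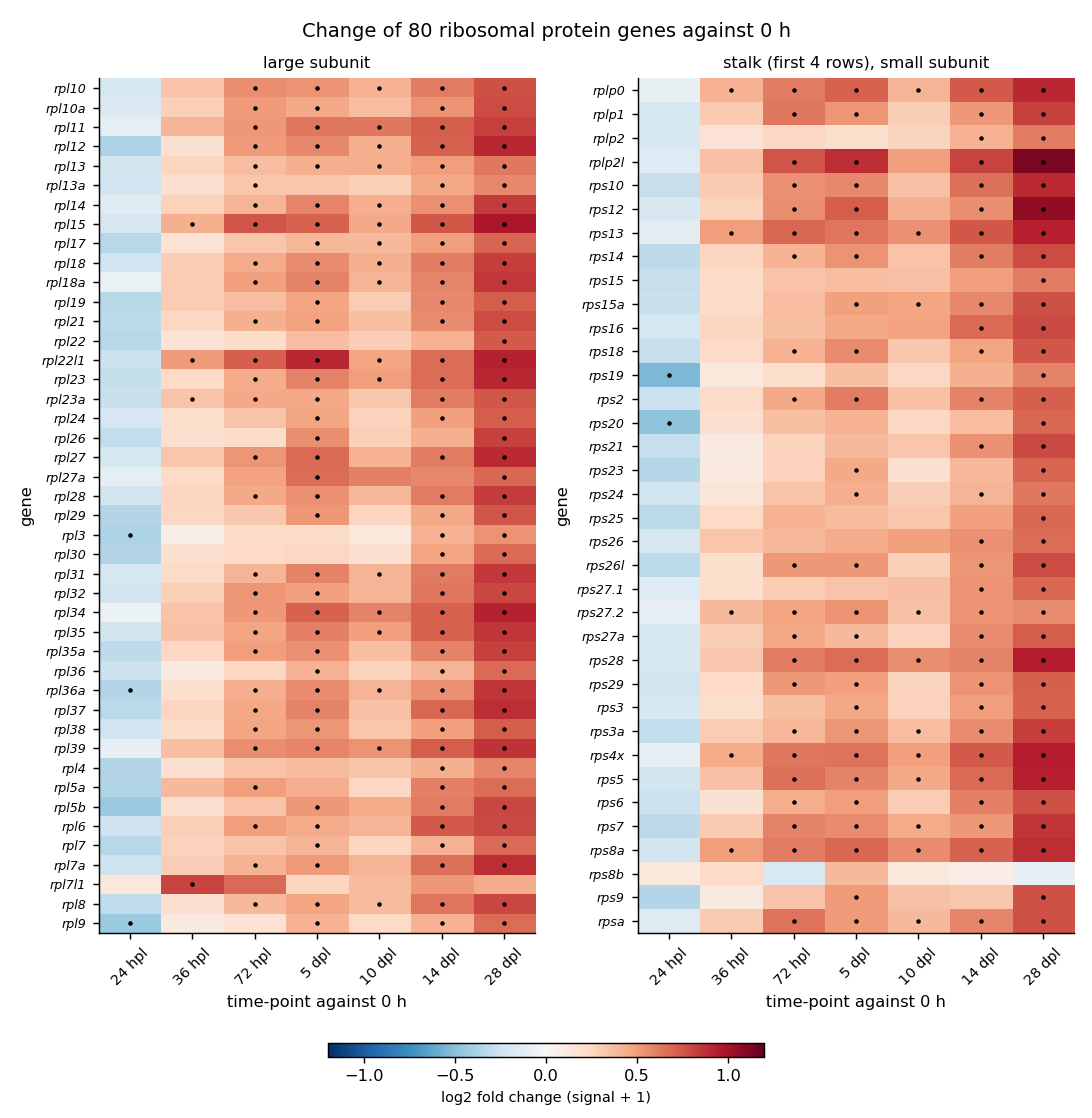
Log2 fold change against 0 h (color) of 80 of the 82 ribosomal protein genes (rows) at the 7 light time-points (columns), with black dots at genes past the test. The left panel holds the large subunit and the right panel the 4 stalk genes and the small subunit; nearly all rows run from blue at 24 hpl (median -0.24) to the deepest red at 28 dpl (median 0.78), and rps8b and rpl7l1 depart from this.

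The stalk is the flexible arm of the large subunit on which the elongation factors dock, built from the base protein P0 and pairs of the acidic proteins P1 and P2. Zebrafish rplp0, which encodes the base, had a lowest, median and highest signal of 2043, 2500 and 4045 at 28 dpl, against 1293, 1382 and 1640 at 0 h. The 6 retinas at 28 dpl all lay above the 0 h retinas, with a log2 fold change of 0.90 ± 0.13 (SE; adjusted p = 1.35e-06), and of 0.78 without replicate 5. It was already called at 36 hpl, where its signal ran from 1575 to 2480 with a log2 fold change of 0.41 ± 0.13 (adjusted p = 0.0264). That call was lost without 0 h replicate 3 or 6 or without 36 hpl replicate 1 or 5, with an adjusted p of up to 0.11. P1, encoded by rplp1, was among the 3 ribosomal protein genes of highest mean signal, at 3169, 3575 and 5463 at 28 dpl against 1994, 2168 and 2523 at 0 h. Its log2 fold change of 0.82 ± 0.13 was past the test (adjusted p = 4e-06), as was that of 0.63 ± 0.13 at 72 hpl (adjusted p = 0.000263), where all 6 retinas again lay above 0 h.

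The P2 copies differed in their calls. The rplp2l transcript showed the largest rise of all 82 genes, with 1958, 2219 and 3904 signal at 28 dpl against 996, 1127 and 1363 at 0 h. No retina at 28 dpl reached down to the 0 h range, and the log2 fold change was 1.13 ± 0.17 (adjusted p = 1.52e-06), 1.01 without replicate 5 and 0.92 without replicates 5 and 6. It was also called at 72 hpl (0.75 ± 0.17), 5 dpl (0.88 ± 0.17) and 14 dpl (0.81 ± 0.17) and had an adjusted p of 0.0507 at 10 dpl. The rplp2 transcript was at 1883, 2257 and 4612 signal at 28 dpl against 1488, 1694 and 2064 at 0 h, and the groups overlapped. Its log2 fold change was 0.61 ± 0.14 (adjusted p = 0.00129), 0.44 without replicate 5 and 0.27 without replicates 5 and 6, where the call was lost (adjusted p = 0.112). At 5 dpl rplp2 stood at 1747 to 2044 signal, with a log2 fold change of 0.21 (adjusted p = 0.442). At 14 dpl rplp2 was called, but that call was lost in 37 of the 48 fits that each left out 1 library (adjusted p up to 0.112). The share of rplp2l in the summed signal of the pair was 51.9% ± 4.62 at 5 dpl, 44.3% ± 1.76 at 10 dpl and 49.2% ± 2.84 at 28 dpl, against 40.4% ± 3.18 at 0 h (SD, n = 6 each). At 5 dpl the 6 retinas ran from 47.0% to 59.5% and at 28 dpl from 45.8% to 52.1%, all above the 37.2% to 45.4% of 0 h. The other time-points overlapped with 0 h, among them 72 hpl (40.1% to 56.4%), 10 dpl (42.2% to 46.5%) and 14 dpl (38.1% to 53.6%). The difference in share was not tested. Reads that fit more than 1 copy can be split or dropped in counting, and how the authors treated them is not given in the sources used here, so values of near-identical copies are uncertain.

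In the large subunit, 29 of 44 genes were higher at 72 hpl (all genes 9.2%) and 37 at 5 dpl (6.49%). Higher at 10 dpl were 17 (6.41%), at 14 dpl 40 (5.59%) and at 28 dpl 43 (7.74%). At 10 dpl, median-of-ratios and upper-quartile scaling left 1 and 0 of all 82 genes. At 28 dpl, 70 of the 82 were left without replicates 5 and 6. The largest rise in the large subunit outside the stalk was that of rpl15, at 1464, 1640 and 2258 signal at 28 dpl against 709, 803 and 1131 at 0 h. All 28 dpl retinas were above 0 h, with a log2 fold change of 0.97 ± 0.14 (adjusted p = 2.14e-06), and its calls at 36 hpl and 10 dpl were each lost without 1 of several single libraries (adjusted p up to 0.139 and 0.108). The rpl3 transcript, whose protein lies near the site where peptide bonds are made, was another of the 3 with highest mean signal. It fell to 1535, 1787 and 1977 at 24 hpl, against 1987, 2291 and 2605 at 0 h, so that no retina overlapped, with a log2 fold change of -0.37 ± 0.12 (adjusted p = 0.0241). At 28 dpl it ran from 2985 to 4284 signal (log2 fold change 0.54, adjusted p = 0.000928). The rpl9 transcript fell to 669, 784 and 909 signal at 24 hpl against 897, 1044 and 1417 at 0 h, with a narrow overlap, a log2 fold change of -0.44 ± 0.12 (adjusted p = 0.00842), and it was called higher at 5, 14 and 28 dpl. The call at 5 dpl was lost once replicate 3 of 5 dpl or library A of set 2 was dropped (adjusted p up to 0.0571), and that at 14 dpl without 1 of 4 single libraries (adjusted p up to 0.0927). The fifth gene lower at 24 hpl beside rps19 and rps20 was rpl36a (log2 fold change -0.35, adjusted p = 0.0439). The fall of rpl3 was not called once replicate 2 of 24 hpl, replicate 2 of 0 h or library A of set 2 was dropped (adjusted p up to 0.069). Signal was lowest for rpl27a among the large-subunit genes after rpl7l1. It had 142, 204 and 342 signal at 28 dpl against 73.6, 143 and 211 at 0 h, with overlap between the groups, and its call (log2 fold change 0.69, adjusted p = 0.0255) was lost without 28 dpl replicate 5 or 6 or without 0 h library A of set 2 or replicate 6 (adjusted p up to 0.12).

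The narrowest spread of time-point means, apart from rps8b and rps27.2, was that of rpl13a, with 1329, 1630 and 2163 signal at 28 dpl against 987, 1071 and 1303 at 0 h (log2 fold change 0.58, adjusted p = 0.000348). The proteins L5 and L11 join the 5S rRNA and, outside the ribosome, bind the p53 regulator Mdm2. The rpl5a transcript was at 860, 1049 and 1567 signal at 28 dpl against 557, 690 and 828 at 0 h, and rpl5b at 646, 799 and 1260 signal against 388, 497 and 548. No retina overlapped in either copy. The log2 fold changes were 0.67 ± 0.15 for rpl5a (adjusted p = 0.00156) and 0.80 ± 0.17 for rpl5b (adjusted p = 0.000581), and without replicates 5 and 6 that of rpl5a was 0.46 and no longer called (adjusted p = 0.0601). The share of rpl5b in the pair was 43.9% ± 2.36 at 28 dpl and 41.7% ± 3.28 at 0 h, within the spread of the retinas.

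The rpl22 and rpl22l1 transcripts encode paralogs that have different roles in blood cell development in zebrafish. The less abundant copy rpl22l1 was at 276, 311 and 559 signal at 36 hpl and 418, 436 and 569 signal at 5 dpl, against 187, 247 and 295 at 0 h. The 5 dpl retinas all lay above 0 h, with a log2 fold change of 0.91 ± 0.15 (adjusted p = 2.13e-05), while at 36 hpl the log2 fold change of 0.51 ± 0.15 (adjusted p = 0.0182) was lost without 36 hpl replicate 1 or 0 h replicate 5 (adjusted p up to 0.10). The more abundant rpl22 had 1179, 1240 and 1628 signal at 5 dpl against 815, 978 and 1210 at 0 h (log2 fold change 0.37, adjusted p = 0.102) and was called at 28 dpl only (0.74 ± 0.14, adjusted p = 0.000163). The share of rpl22l1 in the pair was 26.2% ± 3.63 at 5 dpl and 21.7% ± 1.42 at 28 dpl, against 19.7% ± 3.32 at 0 h (SD, n = 6 each), and the ranges overlapped at both; whether the copies differed in their change was not tested. A low copy, rpl7l1, was at 26.3, 34.1 and 66.9 signal at 36 hpl, against 17.3, 21.4 and 27.6 at 0 h. Its log2 fold change of 0.81 ± 0.26 at 36 hpl was past the test (adjusted p = 0.0269) and was lost without 36 hpl replicate 1 or 5 or without 0 h library A of set 2 (adjusted p up to 0.11). At 28 dpl rpl7l1 ran from 16.6 to 53.8 signal with a log2 fold change of 0.44 (adjusted p = 0.303), and it did not pass the F-test (adjusted p = 0.111). Its relative rpl7 was at 1461, 1551 and 2512 signal at 28 dpl against 910, 1039 and 1372 at 0 h, without overlap (log2 fold change 0.68 ± 0.12, adjusted p = 5.59e-05).

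**Figure D4:**
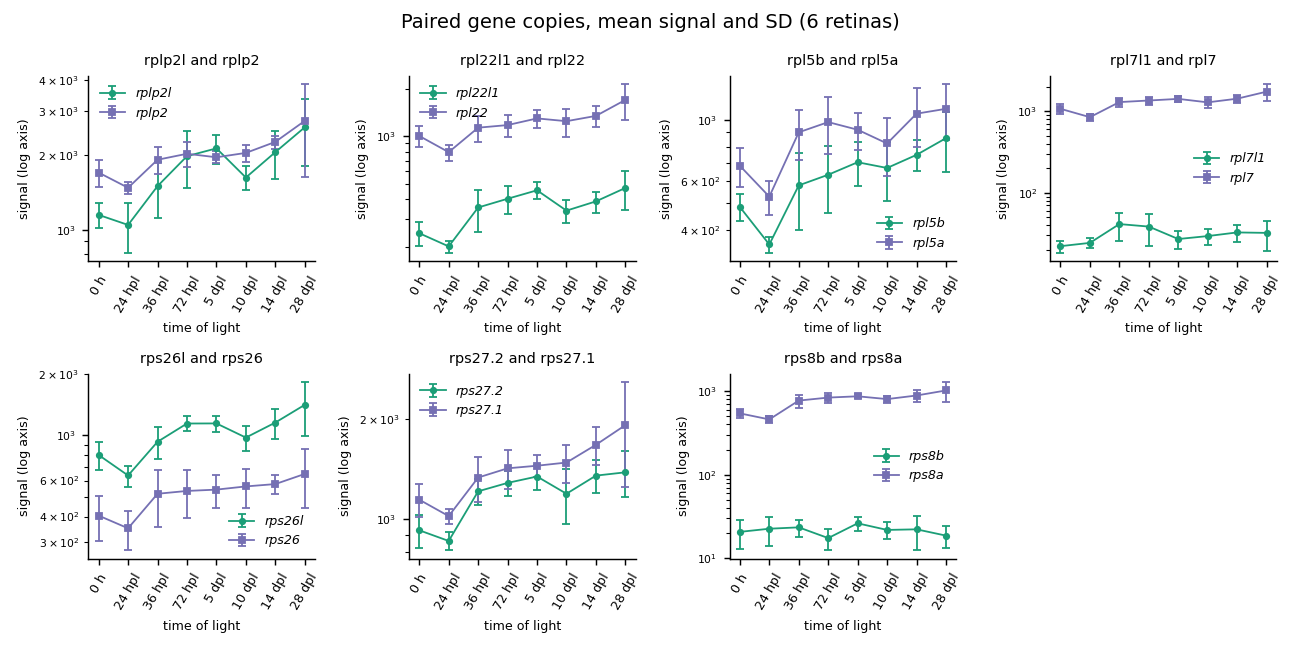
Mean signal (vertical axis, log scale) ± SD of 6 retinas at each time-point (horizontal axis) for the 7 pairs of ribosomal protein gene copies, with the copy named first in each title as green circles and the other as purple squares. The rplp2l curve lies close to that of rplp2 at 72 hpl, 5 dpl and 28 dpl, and the low copies rps8b and rpl7l1 average 17.4 to 41.4 signal over the time-points.

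In the small subunit, 19 of 34 genes were higher at 72 hpl (all genes 9.2%) and 24 at 5 dpl (6.49%). Higher at 10 dpl were 11 (6.41%), at 14 dpl 26 (5.59%) and at 28 dpl 32 (7.74%). Among the largest rises was that of rps12, whose protein sits on the beak of the subunit. The rps12 transcript had 1715, 1987 and 3495 signal at 28 dpl against 833, 986 and 1315 at 0 h, without overlap. Its log2 fold change was 1.07 ± 0.15 (adjusted p = 9.98e-07), and 0.91 without replicate 5.

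The largest falls of all 82 genes were in the small subunit at 24 hpl. The rps19 transcript, whose human counterpart is the gene most often mutated in Diamond-Blackfan anaemia, fell to 824, 1061 and 1165 signal at 24 hpl, against 1201, 1433 and 1963 at 0 h. No retina overlapped, and the log2 fold change was -0.54 ± 0.15 (adjusted p = 0.00883). At 28 dpl rps19 was at 1904, 2092 and 3263 signal with a log2 fold change of 0.60 ± 0.15 (adjusted p = 0.00451), which was 0.43 and no longer called without replicates 5 and 6 (adjusted p = 0.0856). The rps20 transcript fell to 522, 726 and 862 signal at 24 hpl, against 785, 953 and 1290 at 0 h, with overlap and a log2 fold change of -0.48 ± 0.15 (adjusted p = 0.0197). That call was lost without 0 h replicate 2 or without 24 hpl replicate 4 or 6 (adjusted p up to 0.064). At 28 dpl rps20 was at 1292, 1448 and 2318 signal (log2 fold change 0.69, adjusted p = 0.000832).

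The gene of highest mean signal was rps23, whose protein lines the decoding centre, at 3233, 3823 and 5852 signal at 28 dpl against 2212, 2342 and 3221 at 0 h. Those retinas did not overlap, with a log2 fold change of 0.70 ± 0.14 (adjusted p = 0.00018), and of 0.59 without replicate 5. For rpsa, whose protein is also known as the laminin receptor, signal was 1899, 2109 and 2254 at 72 hpl and 1967, 2128 and 3100 at 28 dpl, against 1146, 1302 and 1623 at 0 h. Both groups lay above 0 h in every retina, with log2 fold changes of 0.65 ± 0.12 (adjusted p = 4.4e-05) and 0.76 ± 0.12 (adjusted p = 2.88e-06).

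The rps8a transcript was called at each time-point from 36 hpl on, at 605 to 990 signal at 36 hpl and 706 to 1503 signal at 28 dpl, against 451 to 653 at 0 h, with a log2 fold change of 0.88 ± 0.13 at 28 dpl (adjusted p = 1.4e-06). Its call at 36 hpl was lost under median-of-ratios and upper-quartile scaling. The rps8b transcript had the lowest mean signal of all, at 12.04, 19.6 and 27.08 at 28 dpl against 11.4, 20.6 and 29.4 at 0 h. Its retinas overlapped at every time-point, and its log2 fold change at 28 dpl was -0.10 ± 0.27 (adjusted p = 0.872), against 0.88 ± 0.13 for rps8a. Its standard error was larger than that of rps8a, and whether the copies differed in their change was not tested. The rps26l transcript was at 1083, 1251 and 2202 signal at 28 dpl against 694, 756 and 1038 at 0 h (log2 fold change 0.79 ± 0.13, adjusted p = 2.47e-05). The rps26 transcript was at 497, 552 and 1017 signal against 272, 436 and 525, with overlap, and its log2 fold change of 0.67 ± 0.17 (adjusted p = 0.00609) was 0.31 and no longer called without replicates 5 and 6 (adjusted p = 0.273). The zinc-binding rps27.1 and rps27.2 stood at 1390, 1603 and 3080 and at 1223, 1291 and 1784 signal at 28 dpl, against 973, 1145 and 1324 and against 785, 926 and 1092 at 0 h. Both were past the test at 28 dpl, with log2 fold changes of 0.68 ± 0.14 and 0.57 ± 0.11 (adjusted p = 0.000265 and 0.000165).

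The library sets gave the same direction with different counts. Within set 1 alone the median log2 fold change of the 82 genes was -0.37, 0.24 and 0.43 for the 3 time-points in hours and 0.40, 0.43, 0.36 and 0.51 for the 4 in days. Within set 2 alone it was -0.15, 0.29 and 0.47, and 0.62, 0.32, 0.78 and 1.06. In both sets, 81 of 82 genes were higher at 72 hpl, and 82 (5 dpl), 80 (10 dpl), 82 (14 dpl) and 78 (28 dpl) later, against 36.0%, 38.6%, 41.5%, 32.3% and 31.3% of all genes tested. At 24 hpl 67 of 82 were lower in both sets, against 38.1% of all genes. With 3 retinas a group, set 1 called 47 genes at 28 dpl and 16 at 5 dpl, and set 2 called 80 and 23. Far fewer genes than the 70 of both sets together were called in set 1 alone at 14 dpl. In set 2 alone at 72 hpl there were far fewer than the 51 of both sets. These counts are listed at the end. A test of the difference between sets in the change from 0 h found 6 genes at 28 dpl, rpl11, rplp2, rps13, rps15, rps26 and rps27.1, all with a larger rise in set 2, against 2.85% of all genes. Replicates 5 and 6 belong to set 2, and without replicate 5 none of the 82 was called in this test, the 6 genes having adjusted p of 0.0977 to 0.2. At the other time-points limma called none of the 82 in this test. At an unadjusted p under 0.05 there were 42 of the 82 at 28 dpl and 18 at 14 dpl. There was 1 each at 24 hpl and 10 dpl, and 0 at 36 hpl, 72 hpl and 5 dpl. These unadjusted counts were not taken over all genes. The median difference of the 82 was 0.55 at 28 dpl and 0.42 at 14 dpl, against -0.15 and -0.16 over all genes. Without replicate 5 the median of the 82 at 28 dpl was 0.31. Across time-points, 14 of the 82 genes were lower and none higher in set 2 than in set 1, against 24.9% of all genes that differed between the sets.

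Cytosolic ribosome genes outside the symbol rule were called as well. Of 4 such genes tested, 3 were higher at 28 dpl, also without replicates 5 and 6, and at 14 dpl, and 2 at 72 hpl and 5 dpl. Of all genes, 7.74%, 5.59%, 9.2% and 6.49% were higher at 28 dpl, 14 dpl, 72 hpl and 5 dpl. The small-subunit scaffold rack1, listed as gnb2l1, was at 1262, 1571 and 2160 signal at 28 dpl against 765, 820 and 989 at 0 h (log2 fold change 0.94, adjusted p = 8.59e-07). Another ribosomal protein is made as a fusion to a ubiquitin-like protein and released by cleavage. Its transcript faua had 2209, 2536 and 3825 signal at 28 dpl against 1352, 1447 and 2048 at 0 h (log2 fold change 0.78, adjusted p = 5.65e-06).

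Elongation factors bring aminoacyl-tRNA to the ribosome and move it along the mRNA. Of 12 tested, 6 were higher and 2 lower at both 36 and 72 hpl, 7 higher and 1 lower at 5 dpl, and 7 higher and none lower at 14 and 28 dpl, where 5.59% to 9.66% of all genes were higher at these time-points. At 28 dpl the count was 7 as well without replicates 5 and 6. Their median log2 fold changes at 72 hpl, 5 dpl and 28 dpl were 0.50, 0.56 and 0.74, and single genes at 72 hpl ran from -1.46 to 0.98. The main tRNA carrier eef1a1l1 had 2083, 2743 and 3592 signal at 28 dpl against 1021, 1219 and 1379 at 0 h, without overlap (log2 fold change 1.18, adjusted p = 4.01e-06). Its relative eef1a2, known in mammals as the form of nerve and muscle, fell to 1.64, 8.397 and 12.97 signal at 72 hpl against 12.73, 16.7 and 27.08 at 0 h (log2 fold change -1.46, adjusted p = 0.0199).

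Of 38 initiation factors, 8, 8, 5 and 10 were higher at 72 hpl, 5 dpl, 14 dpl and 28 dpl, against 9.2%, 6.49%, 5.59% and 7.74% of all genes. None was lower at these time-points, the medians were 0.34, 0.26, 0.26 and 0.35, and without replicates 5 and 6 the count at 28 dpl was 7. The eIF3 subunits eif3ha and eif3m were among them. The eif3ha transcript was at 79.0, 115 and 135 signal at 28 dpl against 39.9, 51.2 and 73.9 at 0 h (log2 fold change 1.02, adjusted p = 0.000184), and eif3m at 202, 236 and 316 signal against 100, 126 and 171 (0.87, adjusted p = 0.000161). At 24 hpl the helicase eif4a2 fell to 31.8, 42.8 and 50.8 signal against 72.9, 77.3 and 109 at 0 h (log2 fold change -0.93, adjusted p = 0.000351).

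Ribosome assembly factors, which process rRNA and build the subunits in the nucleolus, had their largest count early. Of 59 tested, 1 was higher and 5 lower at 24 hpl, 11 higher at 36 hpl, 22 higher at 72 hpl, 6 at 5 dpl, 4 at 10 and at 14 dpl and 7 at 28 dpl, with none lower after 24 hpl. Of all genes, 9.66% were higher at 36 hpl and 9.2% at 72 hpl, and the counts of 4 were near the background of 6.41% and 5.59% at 10 and 14 dpl. The 5 lower at 24 hpl were near the background of 7.14%, and 8.37% of all genes were higher there. At 5 and 28 dpl 6.49% and 7.74% of all genes were higher. Without replicates 5 and 6 the 7 at 28 dpl became 4. The median log2 fold change was -0.26, 0.30 and 0.49 through 24, 36 and 72 hpl, then 0.28 (5 dpl) and 0.26 (28 dpl), where that of the ribosomal protein genes was 0.78. The small-subunit factor bysl had 93.6, 115 and 148 signal at 36 hpl against 20.7, 38.8 and 64.6 at 0 h, without overlap (log2 fold change 1.57, adjusted p = 1.29e-07). The box H/ACA protein nop10 had 24.3, 35.1 and 69.4 signal at 72 hpl against 8.18, 14.2 and 20.02 at 0 h (log2 fold change 1.47, adjusted p = 7.16e-05). Whether the course of the assembly factors differed from that of the ribosomal protein genes was not tested.

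Of 22 genes that control translation, 6 were higher and 3 lower at 24 hpl, 7 higher at 36 hpl, and 4 higher and 1 lower at 72 hpl. Of all genes, 8.37%, 9.66% and 9.2% were higher at these time-points, and 7.14%, 3.8% and 5.7% were lower. Later, 2 (5 dpl), 3 (10 dpl), 1 (14 dpl) and 1 (28 dpl) were higher and none lower, against 5.59% to 7.74% of all genes. Without replicate 5 none was called higher at 28 dpl, and without replicates 5 and 6 there was 1 higher and 1 lower. At 24 hpl ppp1r15a, whose protein directs the dephosphorylation of eIF2α, had 185, 704 and 4851 signal against 63.4, 104 and 161 at 0 h (log2 fold change 2.83, adjusted p = 0.000107). The eIF4E-binding gene eif4ebp3l had 22.4, 59.8 and 183 signal at 24 hpl against 4.07, 10.5 and 14.6 at 0 h, without overlap (log2 fold change 2.53, adjusted p = 1.49e-05), and it was called higher at each of the 7 time-points. Its call at 28 dpl (log2 fold change 1.35, adjusted p = 0.0317) was the only one of this list there and was lost without replicate 5. Of 9 genes of nascent chain binding and other TOP-type mRNAs, 3 were higher at 28 dpl (2 without replicate 5) and 4 at 14 dpl, among them tpt1, at 1717, 2138 and 2979 signal at 28 dpl against 1134, 1304 and 1584 at 0 h (log2 fold change 0.70, adjusted p = 3.57e-05). Of all genes, 7.74% were higher at 28 dpl and 5.59% at 14 dpl.

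Mitochondrial ribosomal proteins, which are encoded in the nucleus but build a separate ribosome inside mitochondria, gave few calls before 28 dpl. Of 71 tested, 3 were higher and 4 lower at 24 hpl, where 8.37% of all genes were higher and 7.14% lower. Later, 3 (72 hpl), 1 (5 dpl), 5 (14 dpl) and 14 (28 dpl) were higher, with none lower at these time-points, where 9.2%, 6.49%, 5.59% and 7.74% of all genes were higher. The 14 at 28 dpl became 8 without replicate 5 and 4 without replicates 5 and 6. Their medians at the same time-points were 0.07, 0.11, 0.19 and 0.40 on the log2 scale. The mrpl57 transcript had 95.2, 129 and 201 signal at 28 dpl against 43.1, 72.8 and 104 at 0 h (log2 fold change 0.90, adjusted p = 0.000582). These genes are less abundant than the cytosolic ones, and the medians of the lists were not tested against each other.

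**Figure D5:**
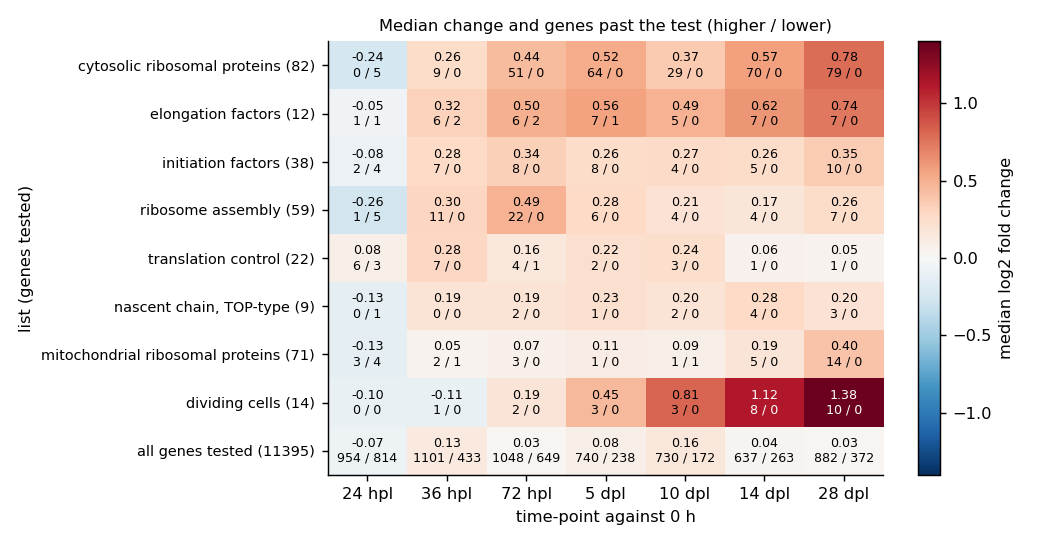
Median log2 fold change against 0 h (color and upper number) of each gene list (rows, with the number of genes tested) at the 7 light time-points (columns); the lower numbers count the genes past the test that were higher and lower. Cytosolic ribosomal proteins and elongation factors reach 0.78 and 0.74 at 28 dpl, mitochondrial ribosomal proteins 0.40, and ribosome assembly genes peak at 0.49 at 72 hpl.

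Markers of some retinal cell types moved over the same time-points. In bulk tissue, fewer cells of a type and less RNA per cell cannot be told apart. The 7 rod genes together took 1.07% ± 0.215 of the signal at 5 dpl and 1.18% ± 0.267 at 28 dpl, against 4.60% ± 0.319 at 0 h, and 5 of the 7 were lower at both time-points. Another 1 of the 7 was higher at 28 dpl, a call lost without replicate 5. The 13 cone genes took 6.13% ± 0.794 at 5 dpl and 6.00% ± 0.729 at 28 dpl, against 7.98% ± 1.22 at 0 h. Of these 13, 2 were higher and 3 lower at 28 dpl, and 1 was higher and 1 lower without replicates 5 and 6. After rescaling to the total outside the 20 rod and cone genes, an alternative chosen after seeing the data, 44 ribosomal protein genes were higher at 5 dpl and 77 at 28 dpl, with medians of 0.43 and 0.69. The medians over all genes were then 0.001 and -0.05. Microglia and macrophage genes summed to 0.233% ± 0.0313 (5 dpl), 0.319% ± 0.0709 (10 dpl) and 0.204% ± 0.0374 (28 dpl), against 0.135% ± 0.0218 at 0 h, with 10, 11 and 6 of 16 higher, the 6 becoming 3 without replicates 5 and 6. Genes of dividing cells summed to 0.0448% ± 0.00579 at 14 dpl and 0.0518% ± 0.0217 at 28 dpl, against 0.0226% ± 0.00316 at 0 h, with 8 and 10 of 14 higher (6 at 28 dpl without replicates 5 and 6), and replicate 5 was the highest at 28 dpl with 0.0945%. Pigment epithelium genes summed to 0.805% ± 0.145 at 5 dpl and 0.829% ± 0.195 at 28 dpl, against 0.363% ± 0.083 at 0 h, with 4 of 7 higher at both. Of all genes tested, 6.49%, 6.41%, 5.59% and 7.74% were higher at 5, 10, 14 and 28 dpl. Lower were 2.09% at 5 dpl and 3.26% at 28 dpl. Bipolar cell genes summed to 0.139% ± 0.0145 at 0 h, 0.140% ± 0.00975 at 5 dpl and 0.133% ± 0.0155 at 28 dpl. Amacrine and ganglion cell genes took 0.299% ± 0.0218, 0.289% ± 0.0241 and 0.263% ± 0.0522 at these time-points. Mueller glia genes took 0.277% ± 0.0235, 0.225% ± 0.0172 and 0.227% ± 0.0239. None of these markers was at 0 in all libraries, and the part of any of these cell types in the ribosomal protein values was not tested.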

How the data were processed

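Single-end QuantSeq 3′ mRNA-seq reads of 48 retinas were aligned by the authors with STAR to the zebrafish build dR10, as the paper writes it, counted with HTSeq and processed with edgeR; versions, strand setting and how reads with several matches were handled are not given in the sources used here. The deposited values are edgeR pseudocounts by the authors, a linear signal with nearly equal totals per library, so depth is unknown and the errors given rest on differences among retinas alone. Deposited columns of the authors' own comparisons (log2 fold changes, p-values) were not used. Each replicate is the retina of a separate fish. Groups came from the sample labels; the library set of 2 unmatched 0 h libraries was taken from a suffix of the column names that follows the set in the other 46.

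A gene was tested if 6 or more libraries reached a value of 5 (11395 of 15245; 12 symbols turned into dates were left out). Models on log2(value + 1) held a term for the time-point and one for the library set, leaving 39 residual degrees of freedom, and were fitted by limma 3.58.1 under R 4.3.3 with a moderated, trended variance. The log2 fold changes are on this scale, which understates changes of low genes. The 7 light time-points were compared with 0 h and with the time-point before; genes were called at a Benjamini-Hochberg adjusted p under 0.05 over all genes tested. The fits were tested on simulated data. Alternatives were other scalings, filters (a value of 10 in 12 libraries, or none), a pseudocount of 5, the library sets alone, replicate blocks and leaving out each of 48 libraries.

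The members and the gene lists were chosen with earlier results of these data known. Genes named by rule are the stalk genes and rpsa, the 4 largest rises and falls past the test, paired copies, the 3 highest and lowest in mean signal, the 3 widest and narrowest in spread over time-points, and up to 3 genes of each translation list whose changes were largest among those called; not every one is described, and results of some genes are not reported here. Figures were drawn with matplotlib 3.10.9 in Python 3.11.15.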

Additional observations from a re-analysis of the deposited data

Results flagged for a closer look

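Within groups of 6 retinas, a highest or lowest value was looked for that lay far from the others by Dixon's criterion, which chance meets in about 1 in 20 groups. Among all 82 genes and 8 time-points, 63 of 656 groups held such a value, and 29 of the 63 were replicate 5 at 28 dpl, the retina with the most egg transcripts. At each time-point the 82 genes come from the same 6 retinas, so the groups are not independent. The 63 can therefore not be set against that rate as an excess.

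That retina was high in the summed share of ribosomal protein transcripts (12.3%) and in the signal of rpsa (3100), rps12 (3495), rpl15 (2258), rps19 (3263), rps20 (2318), rpl5a (1567), rpl5b (1260), rpl22 (2530), rpl22l1 (715) and rps23 (5852). Without it, 77 of 82 genes were called higher at 28 dpl, against 79 with it. Replicate 2 at 0 h was high for rplp0 (1640 signal) and rps23 (3221 signal), and it was the highest 0 h retina for 72 of the 82 genes. Replicate 5 at 24 hpl was high for rps12 (1120 signal) and rps8a (534 signal).

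Single values that lay apart were rplp2 at 1547 signal in 72 hpl replicate 5 and at 2523 signal in 14 dpl replicate 2, rpl3 at 3944 signal in 14 dpl replicate 5, and rps27.2 at 1495 signal in 72 hpl replicate 4. The rpl7l1 transcript was low at 17.5 signal in 24 hpl replicate 6. The rpl22 transcript was high at 1628 signal in 5 dpl replicate 3, and rpl22l1 at 559 signal in 36 hpl replicate 1 and at 569 signal in 5 dpl replicate 5.

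For 6 genes the library sets differed in how far 28 dpl stood from 0 h. On the log2 scale the change in set 2 exceeded that in set 1 by 1.03 for rpl11, 0.99 for rplp2, 0.93 for rps13, 1.25 for rps15, 1.03 for rps26 and 0.81 for rps27.1, with adjusted p of 0.0358, 0.0188, 0.0446, 0.0243, 0.0452 and 0.0398 by limma. Without replicate 5 the differences were 0.79, 0.77, 0.74, 1.04, 0.79 and 0.59, and none was past the test.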

How the results depend on the processing

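Counts of ribosomal protein genes past the test kept their direction under every setting tried. At 72 hpl, 5 dpl, 14 dpl and 28 dpl against 0 h, leaving out 1 library gave counts of 44 to 59, 53 to 68, 57 to 75 and 77 to 80, and with the F-test 79 to 81. At 24 hpl, 36 hpl and 10 dpl it gave 2 to 15, 2 to 21 and 11 to 41, for 36 against 24 hpl 57 to 79, and for 72 against 36 hpl 0 to 3. Counts at 24 hpl, 36 hpl, 5 dpl and 10 dpl, with 5, 9, 64 and 29 genes, were 2, 0, 35 and 1 under median-of-ratios scaling and 2, 0, 34 and 0 under upper-quartile scaling. For 36 against 24 hpl these scalings gave 10 and 9, and for 72 against 36 hpl 3 and 5. Median-of-ratios scaling moved the median of all genes by -0.15 at 36 hpl and at 10 dpl. Scaling to the total outside the rod and cone lists gave 23 at 24 hpl, 1 at 36 hpl and 5 at 10 dpl. It moved the median of all genes at 24 hpl by -0.07, and shares of all genes called were not taken under these scalings. With a fold of 2 required, counts were 0 against 0 h at 24, 36 and 72 hpl and at 5, 10 and 14 dpl, 3 at 28 dpl, 0 for 36 against 24 hpl and 3 in the F-test. The first library set alone gave 18, 1 and 33 for 24, 36 and 72 hpl, 16 (5 dpl), 7 (14 dpl), 47 (28 dpl) and 1 for 72 against 36 hpl; the second gave 0, 0, 10 and 23 at 24 hpl to 5 dpl, 0 at 10 dpl, 1 for 36 against 24 hpl and 4 for 14 against 10 dpl. Fewer samples enter these fits. Without both unmatched 0 h libraries, counts were 3 (24 hpl), 4 (36 hpl), 42 (5 dpl) and 9 (10 dpl). Without the 28 dpl libraries with egg transcripts, an alternative chosen after seeing the data, they were 16 at 24 hpl, 19 at 36 hpl, 44 at 10 dpl and 1 for 72 against 36 hpl. The causes were not tested.

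Same-numbered retinas did not deviate together (median correlation -0.00207 over 154 pairs, 15 of them over 0.1), so the numbers were not taken to pair the samples. A replicate block had to leave out both 0 h libraries without a replicate number. It gave 2 genes at 24 hpl, 4 at 36 hpl and 10 at 10 dpl, and 47 at 5 dpl, 61 at 14 dpl and 77 at 28 dpl. Counts without these libraries and without a block are given above, so a difference from the main fit cannot be put down to the block alone. Of 91 calls of named genes, 69 were past the test with the block and without these 0 h libraries. Under median-of-ratios scaling 62 were, and 86 without the libraries with egg transcripts. The first library set alone kept 43 and the second 54, with fewer retinas in the fit. After scaling to the total of non-members all 91 were kept. That scaling widens the changes of these genes, with a median of 0.84 at 28 dpl against 0.78, so it could hardly lose a call. None of the 91 changed sign under these settings or when single libraries were left out. Depth per library is unknown, so counting error could not be set against the spread between retinas, and low genes such as rps8b limit what could be called.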
